A study of Mus musculus with 24 samples.

Results

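Greb1, Pgr, Stc1, Myb, Nrip1, Gm12248, Krt83 and Oxct2b form a set of 8 genes listed as induced by estrogens in the mouse carotid artery. They are 8 of the 55421 genes counted in each library, and were found by their Ensembl identifiers in GENCODE mouse release 21. All 8 were among the 25033 genes that passed the filter on low counts, but 3 of them passed it only through libraries where they were high. With vehicle and tamoxifen alone 5 passed, without Gm12248, Krt83 and Oxct2b, and with vehicle and E4 alone 6, without Krt83 and Oxct2b. The genes were chosen by their counts with E2 and E4 against vehicle, so those values are described here without a test. Tamoxifen was tested for the 5 genes that passed without the estrogen libraries, with the reservation that the vehicle libraries used in that test had also served in the choice of the genes.

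The libraries came from uninjured carotid arteries of ovariectomized C57BL/6 mice, 9 weeks old according to the labels. There were 6 mice in each of 4 groups: vehicle (titled OVX), E2 (17β-estradiol, the main circulating estrogen), E4 (estetrol, a natural estrogen of the fetal liver) and TAM (tamoxifen, which blocks or activates the estrogen receptor depending on the tissue). All mice had lost their ovaries, so the vehicle group is a state of estrogen deprivation. E2 and E4 were given from pellets that held different amounts, and neither the labels nor the methods state the tamoxifen dose for these libraries. The series text gives 3 weeks for estradiol and tamoxifen and names no time for E4 or vehicle, and the methods of the study give a shorter time. The E4 libraries carry a placebo entry in their treatment field and were assigned from their titles. Differences between ligands therefore include dose and formulation.

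Estrogens act mainly through estrogen receptor α, encoded by Esr1, a transcription factor that binds a palindromic DNA element, the ERE, and recruits coactivators or corepressors according to the ligand bound. Greb1 and Pgr are classical targets of this receptor in uterus and breast. Greb1 encodes a chromatin-bound cofactor of the receptor and Pgr the progesterone receptor. Stc1 encodes stanniocalcin-1, a secreted glycoprotein. Myb encodes a transcription factor of immature blood cells, and Nrip1 encodes RIP140, a corepressor recruited by ligand-bound nuclear receptors. Krt83 encodes a hair keratin. Oxct2b encodes a succinyl-CoA transferase of ketone body use that is known from testis. Gm12248 is annotated as protein coding and is named here only.

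Total counts per library ranged from 24647246 to 64221401, with a median of 45156106. The lowest total belonged to E4 C38. Markers of endothelium (5 genes, summed 446.0 to 1040 CPM), smooth muscle (5 genes, 2220 to 7910 CPM) and fibroblasts (5 genes, 2220 to 4860 CPM) were present in every library. CPM are counts scaled to the library total with TMM factors. The 8 summed sympathetic neuron markers stood at 41.2 CPM in vehicle C5 and 212.0 CPM in TAM C35, against 1940 to 8940 CPM elsewhere. One E2 library, C9, stood apart in lymphocyte genes. E4 C38 also stood apart, with 2970 CPM over 6 thyroid and parathyroid markers, against 13.4 to 122.0 CPM in the other 5 E4 libraries. These 4 libraries are named beside the results that rest on them. Without E4 C38 the E4 log2 fold changes of the 6 genes that passed the filter with vehicle and E4 alone ranged from -1.23 (Myb) to 5.63 (Gm12248), with Greb1 at 1.14 and Stc1 at 2.23. Animal numbers fell in 2 series (up to 20, and from 24) in every group, which neither the labels nor the methods call batches.

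Upstream sequence was available for 6 of the 8 genes, in 8 windows from RefSeq (build GRCm38.p6), each reaching from 250 bases before to 50 bases after a start. Stc1 and Krt83 are named only. None of the 8 windows held a full ERE, which joins the arms GGTCA and TGACC over a spacer of any 3 bases and which 0.07% of all 32851 promoters of the same length held. A single arm of the element, GGTCA on either strand, was found in 4 windows of 3 genes (Greb1, Nrip1 and Gm12248), and in 40.5% of all promoters. The searches overlap, since the arm is part of the full element. The Sp1 box GGGCGG, in 35.7% of all promoters, was found in Pgr, in Myb and at the second start of Nrip1. The AP-1 site TGANTCA, in 7.81% of promoters, was found in none of the windows. The 4 windows with an arm are printed because they are the places near the starts of these genes where the letters of the receptor element occur. Only the bases before the start and outside annotated exons of the gene are printed, in lower case from 5′ to 3′ on the strand of the gene, with the arm in capitals.
Greb1, outer start (chr12:16800887-16801136, minus strand): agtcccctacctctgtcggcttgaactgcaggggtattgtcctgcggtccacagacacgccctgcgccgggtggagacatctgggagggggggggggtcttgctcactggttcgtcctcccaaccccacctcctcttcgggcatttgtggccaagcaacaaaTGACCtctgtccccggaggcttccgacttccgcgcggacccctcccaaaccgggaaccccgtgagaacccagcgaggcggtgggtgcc
Greb1, inner start (chr12:16757242-16757489, minus strand): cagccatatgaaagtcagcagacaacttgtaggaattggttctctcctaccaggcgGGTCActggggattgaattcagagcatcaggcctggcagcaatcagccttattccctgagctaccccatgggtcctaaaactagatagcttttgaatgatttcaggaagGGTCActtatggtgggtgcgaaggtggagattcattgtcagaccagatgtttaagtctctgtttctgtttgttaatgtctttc
Nrip1, outer start (chr16:76373828-76374077, minus strand): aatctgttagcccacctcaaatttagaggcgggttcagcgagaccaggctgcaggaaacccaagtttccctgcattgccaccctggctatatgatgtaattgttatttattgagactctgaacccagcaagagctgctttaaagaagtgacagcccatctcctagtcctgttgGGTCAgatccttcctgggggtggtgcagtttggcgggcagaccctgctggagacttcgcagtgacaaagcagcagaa
Gm12248 (chr11:58093135-58093379, minus strand): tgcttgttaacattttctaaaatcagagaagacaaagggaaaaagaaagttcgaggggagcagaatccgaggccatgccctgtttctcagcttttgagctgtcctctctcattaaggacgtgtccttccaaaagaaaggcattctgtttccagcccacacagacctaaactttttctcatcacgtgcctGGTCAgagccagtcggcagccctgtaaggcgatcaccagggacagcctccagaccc

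Counted from the start, where -1 is the last base before it, the arm began at -88 (reverse strand) at the outer start of Greb1, at -194 and -85 at its inner start, at -77 in Nrip1 and at -61 in Gm12248. These matches are letters in a window and no measure of binding, and the windows of Pgr, Myb and Oxct2b held none.

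With E2, 6 of the 8 genes (Greb1, Pgr, Stc1, Gm12248, Krt83 and Oxct2b) had all 6 values above all 6 vehicle values, as did 2.0% of the genes tested. At the thresholds of the study, an adjusted p-value under 0.05 and a change of more than 2-fold, 0.923% of all genes were called higher with E2 and 0.823% with E4. With E4, 5 of the 8 (Greb1, Stc1, Gm12248, Oxct2b and Nrip1) had no overlap with vehicle, as did 5.3% of all genes. Calls of the 8 genes with E2 or E4 are not counted, since these values chose them. With tamoxifen only Stc1 separated fully from vehicle, against 1.49% of all genes. Of the 5 genes tested with tamoxifen, Stc1 and Pgr had an adjusted p-value under 0.05 and a higher level, as did 1.29% of all genes. The E2 and E4 counts without overlap restate the choice of the genes. The median log2 fold change over the 8 genes was 3.26 with E2, or 2.75 with Krt83, which had no vehicle counts, set at the lower bound of its change. With E4 the median was 1.15 over the 7 genes other than Krt83. Over all genes tested the medians were 0.01 and -0.01. The medians of the set likewise restate the choice of the genes. That with E2 includes Myb, whose E2 value rests on 1 library. That with E4 includes Oxct2b, which did not pass the filter with vehicle and E4 alone. The comparisons with vehicle share the same 6 vehicle libraries.

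**Figure D1:**
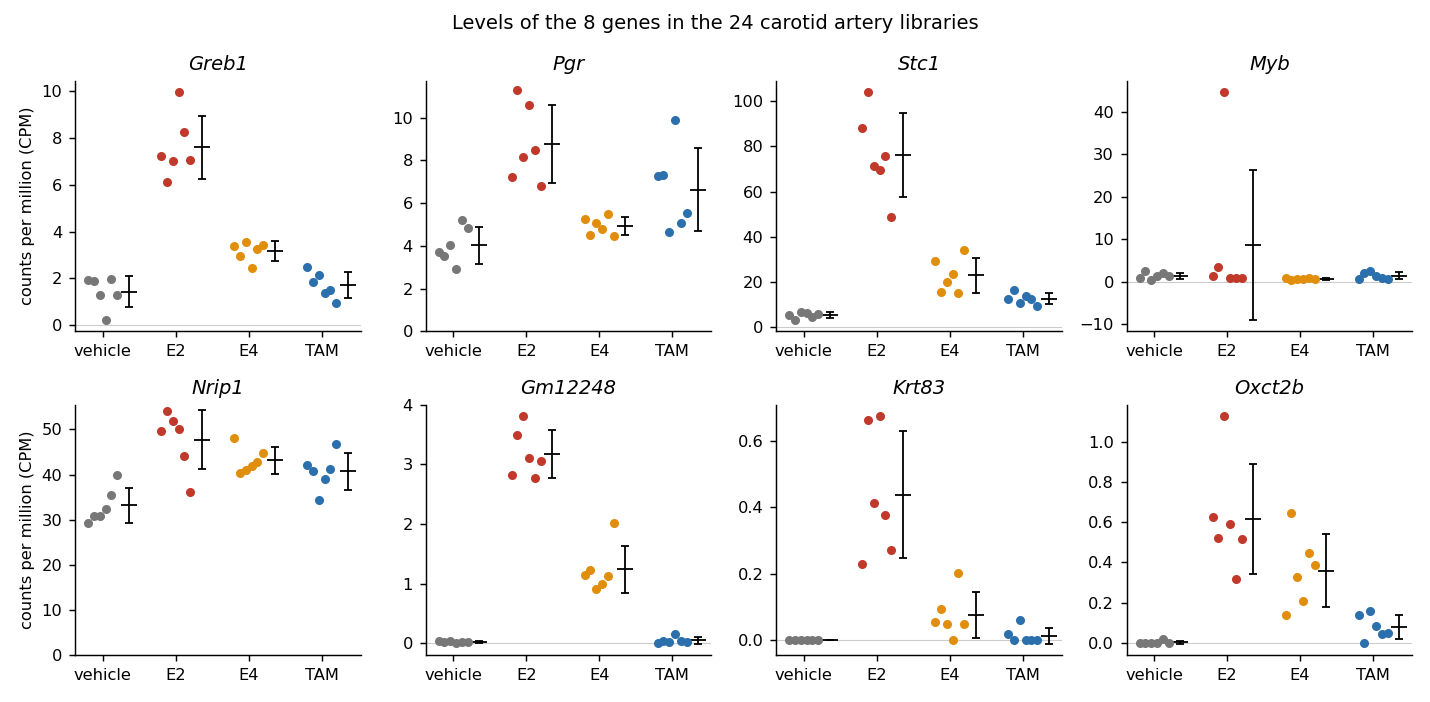
Levels of the 8 genes in CPM (linear axes, 1 panel per gene), with 1 point per mouse and the mean ± SD beside each group of 6. In Greb1, Stc1, Gm12248 and Krt83 the 6 E2 values lie above every value of the other 3 groups, and in Myb a single E2 mouse at 44.5 CPM carries the group.

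Greb1 (ENSMUSG00000036523; GRCm38 chromosome 12, 16670615 to 16800886, minus strand) ranged from 0.22 to 1.98 CPM in vehicle-treated mice (median 1.58), from 6.12 to 9.96 CPM with E2 (median 7.14), from 2.45 to 3.56 CPM with E4 (median 3.32) and from 0.951 to 2.48 CPM with tamoxifen (median 1.66). The E2 and E4 ranges lay apart from each other and above vehicle, whereas the tamoxifen range reached into that of vehicle and touched that of E4. Group means were 1.42 ± 0.673, 7.61 ± 1.34, 3.17 ± 0.411 and 1.71 ± 0.548 CPM (SD, n = 6 each). As compared with vehicle, the log2 fold change was 2.41 (standard error 0.30) with E2 and 1.15 (standard error 0.30) with E4. With tamoxifen it was 0.27 (95% interval -0.31 to 0.85, adjusted p = 0.641, quasi-likelihood test of edgeR). The lowest of all Greb1 values was that of vehicle C5, the library low in sympathetic neuron markers, and the lowest tamoxifen value was that of C35, the other such library. Without C5 the vehicle range narrowed to 1.27 to 1.98 CPM. Without both libraries the log2 fold changes were 2.19, 0.94 and 0.17 for E2, E4 and tamoxifen. With the neuron markers as a covariate the E4 value was 0.73, and these markers reached 4380 to 8940 CPM with E4 against at most 5430 CPM with vehicle. Their part in the Greb1 values was not tested. In whole arteries, fewer cells of a type and less RNA per cell cannot be told apart. Greb1l, the relative of Greb1, did not follow it, at -0.31, 0.17 and 0.0 with the 3 ligands (adjusted p = 0.66 to 0.996 by edgeR), and its lowest value, 4.57 CPM, was likewise that of vehicle C5.

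Pgr (ENSMUSG00000031870; chromosome 9, 8899833 to 8968611, plus strand) ranged from 2.9 to 5.19 CPM with vehicle (median 3.86), from 6.78 to 11.3 CPM with E2 (median 8.33), from 4.45 to 5.51 CPM with E4 (median 4.92) and from 4.66 to 9.88 CPM with tamoxifen (median 6.4). E2 separated from vehicle and from E4, while E4 and tamoxifen overlapped vehicle. The tamoxifen mean (6.63 ± 1.94 CPM) was above the E4 mean (4.93 ± 0.419 CPM, SD, n = 6 each), which among the other 7 genes held for Myb only. The ranges overlapped and the difference was not tested. The log2 fold change was 1.12 (standard error 0.17) with E2 and 0.29 (standard error 0.17) with E4. The E2 value was 0.78 in animals numbered from 24, under the 2-fold threshold. Tamoxifen gave 0.72 on the log2 scale (standard error 0.17, adjusted p = 0.0327 by edgeR), also under it. That adjusted p rose to between 0.0608 and 0.101 by edgeR when vehicle C3, vehicle C5, TAM C11, TAM C12 or TAM C32 was left out, while the log2 fold change stayed between 0.57 and 0.69. It was 0.123 when vehicle and tamoxifen were fitted alone, 0.056 without C5 and C35, 0.0908 and 0.79 within the number series and 0.323 with the B cell covariate (log2 fold change 0.67). Gm16485, a gene on the same strand 3180 bases beyond the end of Pgr, had 2.25 ± 0.498 CPM with vehicle and 4.73 ± 0.782 CPM with E2 (SD, n = 6 each). On the log2 scale it was higher by 1.07 (adjusted p = 0.000734 by edgeR). Among the nuclear receptors and chaperones related to Pgr (7 genes, all tested), only Fkbp5, which encodes a co-chaperone of steroid receptors, passed both thresholds, with E4 (log2 fold change 1.22, standard error 0.19, adjusted p = 0.000373 by edgeR).

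Stc1 (ENSMUSG00000014813; chromosome 14, 69029238 to 69041804, plus strand) was raised in every treated mouse. Vehicle-treated mice had 3.04 to 6.73 CPM (median 5.49), and E2-treated mice 48.5 to 104.0 CPM (median 73.7). E4-treated mice had 14.8 to 34.1 CPM (median 21.5), and tamoxifen-treated mice 9.28 to 16.5 CPM (median 12.4). Every treated mouse was above every vehicle-treated mouse, and every E2-treated mouse above every other mouse, whereas the E4 and tamoxifen ranges overlapped. The log2 fold change was 3.88 (standard error 0.24) with E2 and 2.13 (standard error 0.22) with E4. With tamoxifen it was 1.26 (standard error 0.22), a 2.39-fold rise, with an adjusted p of 0.00657 by edgeR. Stc1 was the 1 gene of the 5 tested that passed both thresholds with tamoxifen, as did 0.12% of all genes in that direction. Leaving out single libraries kept the adjusted p between 0.00429 and 0.0233 by edgeR. With the B cell markers as a covariate the log2 fold change stayed at 1.22, and the adjusted p was 0.121 by edgeR. These markers summed to 4.41 to 30.6 CPM with vehicle and 2.93 to 9.14 CPM with tamoxifen, and their part was not tested. Within the number series the log2 fold changes were 1.30 and 1.22, with adjusted p = 0.0895 and 0.776 by edgeR.

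Per kilobase of exon, Nrip1 led the set in vehicle-treated mice (2.89 ± 0.345 CPM per kb), ahead of Stc1 (1.23 ± 0.311). With E2 the order was turned, Stc1 being at 18.2 ± 4.49 and Nrip1 at 4.16 ± 0.573 CPM per kb (SD, n = 6 each). Stc1 also has an antisense gene, Gm41192, that shares 229 of its 4197 exonic bases. Gm41192 was higher by 4.10 with E2 and by 2.15 with E4 on the log2 scale. Its counts stayed between 2.53% and 3.83% of those of Stc1 in the 4 groups. The library kit keeps strand, but the strand setting of the counting is not given in the sources used here. In each library the counts of both genes either carried a decimal, as in vehicle C2 (276.5 and 6.5), or were whole. That is the pattern of shared reads split between genes on opposite strands. The values of Gm41192 can therefore restate those of Stc1, and no p-value is given for them. The same holds for Gm48140 and Greb1 (16.5 and 84.5 counts in vehicle C4). Gm48140 shares 736 of the 9580 exonic bases of Greb1 and held 8.48% to 10.4% of its counts.

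Of the relatives of Stc1, Stc2 did not pass with E2 (log2 fold change 0.02, adjusted p = 0.988 by edgeR) and was at 0.70 with tamoxifen (adjusted p = 0.056). Pappa2, which encodes a protease of insulin-like growth factor binding proteins, passed with E2. It had 2.59 ± 0.697 CPM with vehicle and 5.65 ± 0.641 CPM with E2 (SD, n = 6 each), and was higher by 1.13 on the log2 scale (adjusted p = 0.000328 by edgeR). That gene did not pass once vehicle C5 and TAM C35 were left out.

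Nrip1 (ENSMUSG00000048490; chromosome 16, 76287400 to 76373827, minus strand) had the highest vehicle level of the set in CPM and changed by less than 2-fold with each ligand. It ranged from 29.3 to 40.0 CPM with vehicle (median 31.6), from 36.1 to 54.1 CPM with E2 (mean 47.7 ± 6.56, SD, n = 6), from 40.3 to 48.2 CPM with E4 (median 42.3) and from 34.3 to 46.7 CPM with tamoxifen (median 41.0). E4 lay just above vehicle, while E2 and tamoxifen overlapped vehicle. The log2 fold changes were 0.52, 0.38 and 0.30 (standard error 0.09 each) with E2, E4 and tamoxifen. The tamoxifen change had an adjusted p of 0.077 by edgeR and 0.0388 by DESeq2. The E2 change was 0.75 in animals numbered up to 20 and 0.20 in those numbered from 24. Of 9 tested corepressor and coactivator genes related to Nrip1, none passed both thresholds with any ligand.

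**Figure D2:**
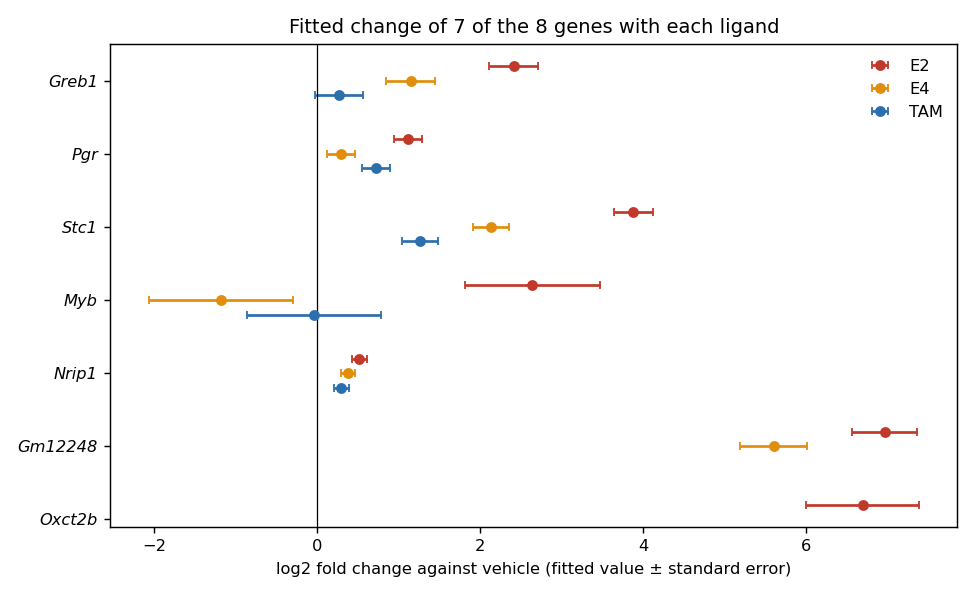
Fitted log2 fold change against vehicle (x axis) with its standard error, for E2, E4 and tamoxifen (colours). Krt83, which had no vehicle counts, is left out, as are the ligands for which Gm12248 and Oxct2b did not pass the filter. With E2, Gm12248 and Oxct2b, which vehicle-treated mice held at a few counts, lie farthest right among the 7 genes, Nrip1 sits between 0.30 and 0.52, and the E2 value of Myb rests on 1 library.

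Gm12248 (ENSMUSG00000086962; chromosome 11, 58063552 to 58093134, minus strand) was close to absent without estrogen. The 6 vehicle libraries held 7 counts in all (0 to 0.0375 CPM). E2-treated mice had 2.77 to 3.81 CPM (median 3.08), E4-treated mice 0.914 to 2.02 CPM (median 1.14) and tamoxifen-treated mice 0 to 0.149 CPM (median 0.0339). The E2, E4 and vehicle ranges were all separate, and tamoxifen overlapped vehicle only. From the summed counts the ratio to vehicle was 138.0 with E2 (exact 95% interval 66.8 to 345.0) and 54.2 with E4, and the interval covers counting error only. The fitted log2 fold change with E2 was 6.96 (standard error 0.40). With tamoxifen, 13 counts against 7 gave a ratio of 1.96. TAM C32, the highest of the tamoxifen libraries, held 7 of those 13 counts. No test or interval is given for tamoxifen, since the gene passed the filter through E2 and E4 only. Larp1, which ends 1518 bases from Gm12248 on the other strand, had a log2 fold change of 0.35 with E2 and 0.68 with E4, the latter with adjusted p = 0.00211 by edgeR and under the 2-fold threshold.

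Krt83 (ENSMUSG00000067613; chromosome 15, 101485130 to 101491512, minus strand) had 0 counts in all 6 vehicle libraries. It was found in every E2 library, at 11 to 32 counts or 0.23 to 0.675 CPM (median 0.396). With E4 it was found in 5 of 6 libraries at 0 to 5 counts (median 0.0518 CPM), and with tamoxifen in 2 of 6, at 1 and 3 counts. The E2 range stood apart from the other groups. Taking 3 counts in a vehicle library (0.0606 CPM on average) as the limit that a count of 0 allows, the E2 mean of 0.438 ± 0.191 CPM was at least 7.23-fold higher (SD, n = 6). The E4 mean of 0.0742 ± 0.0694 CPM (SD, n = 6) was over that limit through E4 C38, at 0.203 CPM, and was 0.0485 ± 0.0328 CPM (SD, n = 5) without it, under the limit, so no fold is given. The tamoxifen mean of 0.0127 CPM was under that limit. The 5 epidermis and hair markers summed to 3.55 to 4.44 CPM with vehicle and 4.05 to 5.14 CPM in 5 E2 libraries, ranges that overlapped, and to 20.3 CPM in E2 C9, where Krt83 was at 0.414 CPM. Of its relatives among the hair keratins, Krt87, named after its values were seen, was the 1 that passed the filter, at 0.277 ± 0.0678 CPM with vehicle and 0.2 ± 0.164 CPM with E2 (SD, n = 6 each), and it was not called with any ligand (adjusted p = 0.2 to 0.99 by edgeR). Krt81 had 1, 3, 2 and 6 summed counts and Krt86 had 3, 6, 1 and 0 with vehicle, E2, E4 and tamoxifen. The Krt83 transcript was 94.6% identical to that of Krt81 and 93.2% to that of Krt86 over the aligned bases, yet none of its 150-base windows (the length of a read) occurred in either.

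Oxct2b (ENSMUSG00000076438; chromosome 4, 123116266 to 123118000, plus strand) had a single count in the vehicle libraries. E2-treated mice had 0.315 to 1.13 CPM (15 to 52 counts, median 0.555 CPM) and E4-treated mice 0.137 to 0.645 CPM (5 to 28.5 counts, median 0.359 CPM). Tamoxifen-treated mice had 0 to 0.157 CPM (0 to 8 counts, median 0.0658 CPM), and 5 of the 6 were above the highest vehicle value. Both estrogens separated from vehicle and overlapped each other, and the highest E2 value was that of C9. The ratio of summed counts to the single vehicle count was 189.0 with E2 (exact 95% interval 33.4 to 7500), 111.0 with E4 (19.3 to 4430) and 24.3 with tamoxifen. These intervals pool the reads of 6 mice, cover counting error only and are no test between groups. The tamoxifen values are given without a test or interval. The gene passed the filter through the E2 libraries, and its near-empty vehicle libraries had served in its choice.

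Oxct2b lies whole within Bmp8b, on the same strand, with none of its 1735 exonic bases in a Bmp8b exon. Gm17244, on the other strand, shares 499 of those bases. Bmp8b, which encodes a bone morphogenetic protein, had 1.19 to 1.94 CPM with vehicle, 11.5 to 20.6 CPM with E2, 3.24 to 6.78 CPM with E4 and 1.11 to 2.24 CPM with tamoxifen. Its log2 fold change was 3.25 with E2 (adjusted p = 1.62e-10), 1.76 with E4 (adjusted p = 5.25e-06) and 0.18 with tamoxifen (adjusted p = 0.604 by edgeR). Bmp8b thus rose with both estrogens, where Oxct2b was also high, and did not pass with tamoxifen, where Oxct2b was found in 5 of 6 libraries. Gm17244 rose by 4.14 with E2 and 2.92 with E4 and stood at 1.26 with tamoxifen (adjusted p = 0.121 by edgeR). Reads from the Bmp8b intron and from Oxct2b, on the same strand, cannot be told apart in gene counts. Without strand, neither can those from Gm17244.

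Oxct2b also has a near copy. Its transcript was 98.0% identical to that of Oxct2a over 1735 aligned bases, and 20.8% of its 150-base windows occurred unchanged in Oxct2a, so that the 2 genes can share reads and how such reads were assigned is not given in the sources used here. Oxct2a had 6, 48, 13 and 4 summed counts with vehicle, E2, E4 and tamoxifen and did not pass the low-count filter. It lies within Bmp8a (chromosome 4, 123312645 to 123343252, minus strand), on the same strand. Bmp8a was chosen here for that position after the values were seen. Its log2 fold changes were 5.54 with E2, 3.99 with E4 and 2.36 with tamoxifen. It held 0.0666 ± 0.0513 CPM with vehicle and 0.336 ± 0.2 CPM with tamoxifen (SD, n = 6 each), and no p-value is given at these levels. Oxct1, which encodes the widely expressed enzyme of the family, was at 356.0 ± 28.7 CPM with vehicle and 390.0 ± 11.8 CPM with E2 (SD, n = 6 each) and did not pass with any ligand (adjusted p = 0.247 to 0.954 by edgeR).

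**Figure D3:**
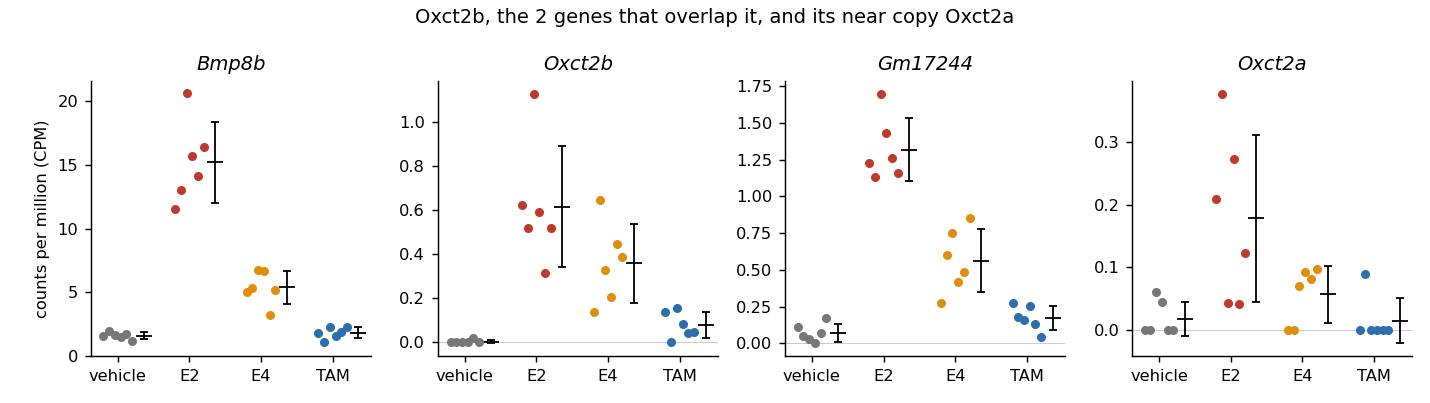
CPM by mouse, with the mean ± SD of each group of 6, for Bmp8b, for Oxct2b within it, for Gm17244 on the other strand and for the near copy Oxct2a (linear axes that differ between panels). Bmp8b and Gm17244 share the order E2, E4, then the other groups with Oxct2b, and the tamoxifen values of Oxct2b reach 0.157 CPM while those of Bmp8b stay at 1.11 to 2.24 CPM, within or near its vehicle range.

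Over the set, 12 tested genes overlapped a member or lay within 20000 bases of one, and 5 of these overlapped. By edgeR, 5 of the 12 were called higher with E2 (Gm48140, Gm16485, Gm41192, Bmp8b and Gm17244), 3 with E4 and 0 with tamoxifen, and none was called lower. Over all genes tested 0.923%, 0.823% and 0.12% were called higher. Of the called neighbours, all but Gm16485 overlap a member. Gm48140, Gm41192 and Gm17244 share exonic bases with it, so their counts can hold the reads by which the members were chosen. Their calls can therefore restate that choice, and the shares over all genes are no measure of them. The other neighbours of Greb1 were not called with E2: E2f6, 10077 bases away, had a log2 fold change of -0.06 (adjusted p = 0.862), and Ntsr2, 10388 bases away, one of 1.03 (adjusted p = 0.173 by edgeR). This search was added after the values were seen.

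Myb (ENSMUSG00000019982; chromosome 10, 21124935 to 21160984, minus strand) went against its place in the set. Vehicle-treated mice had 0.407 to 2.4 CPM (median 1.36), E4-treated mice 0.392 to 0.769 CPM (median 0.628) and tamoxifen-treated mice 0.51 to 2.58 CPM (median 1.07). In E2-treated mice 5 libraries had 0.789 to 3.31 CPM and the sixth, C9, had 44.5 CPM. The groups overlapped in every comparison with vehicle. The log2 fold change with E2 was 2.64 (standard error 0.83) with all libraries and 0.04 (standard error 0.44) without C9. With E4 it was -1.18, with a standard error of 0.88 in the fit of all libraries and 0.45 without C9, and with tamoxifen -0.04 (adjusted p = 0.984 by edgeR), so no ligand raised Myb beyond the spread between mice once C9 was set aside.

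The E2 C9 library was also the highest in genes of developing T cells. Rag1, a recombinase of antigen receptor genes, was at 205.0 CPM against at most 9.09 CPM in the other 23 libraries. Dntt, a polymerase of the same process, was at 65.5 CPM against at most 3.86 CPM. The 6 thymocyte genes examined, a list added after Myb was seen, summed to 358.0 CPM in C9 and at most 19.7 CPM elsewhere. The 6 T cell markers summed to 304.0 CPM in C9. Cd4 and Lck were the genes most like Myb over the 24 libraries (Pearson r = 0.929 and 0.924), with 0.92 each after group means were removed. The part of such cells in the Myb counts was not tested. Mybl2 was also highest in C9, at 3.07 CPM, whereas Mybl1 was lowest there among E2 libraries, at 2.92 CPM. For the other 6 genes with vehicle counts, leaving C9 out gave fitted E2 log2 fold changes between 0.50 (Nrip1) and 6.90 (Gm12248), with Greb1 at 2.44 and Stc1 at 3.90.

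**Figure D4:**
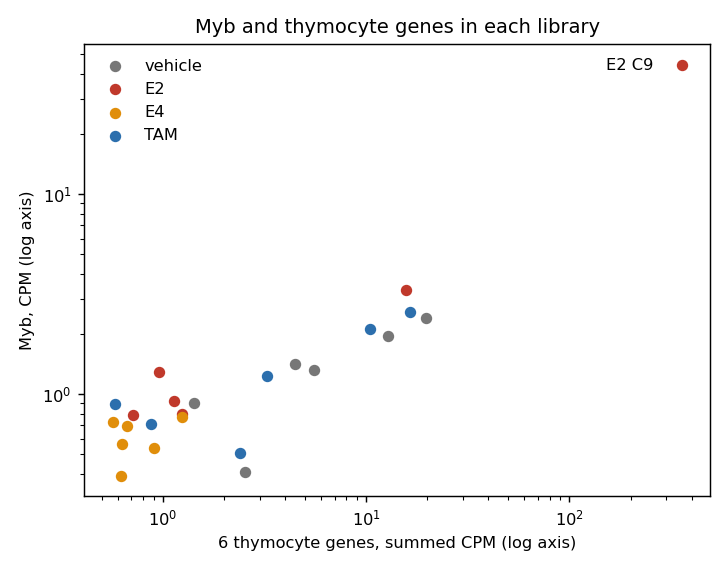
Myb (y axis, CPM) against the sum of 6 thymocyte genes (x axis, CPM) in the 24 libraries, both on log axes, coloured by group. E2 C9 lies alone at 44.5 and 358.0 CPM, and the other 23 libraries stay at or below 3.31 CPM of Myb and 19.7 CPM of the sum.

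The order of the 4 groups differed between the genes. In Greb1, Stc1, Gm12248, Krt83, Nrip1 and Oxct2b the means rose from vehicle over tamoxifen and E4 to E2. In Pgr the means of E4 and tamoxifen changed places, and in Myb they rose from E4 over tamoxifen and vehicle to E2. Neighbours in these orders often overlapped: the E4 and E2 ranges were separate in Greb1, Stc1, Gm12248 and Krt83 but not in Nrip1 or Oxct2b, tamoxifen and E4 were separate in Gm12248 alone, and vehicle and tamoxifen were separate in Stc1 alone. Between E4 and E2, 6 of the 8 genes had no overlap and all 6 were lower with E4, as were 4.13% of all genes. Between tamoxifen and E2, 5 of the 8 (Greb1, Stc1, Gm12248, Krt83 and Oxct2b) were lower with tamoxifen without overlap, as were 3.13% of all genes. The genes were chosen by their E2 and E4 values, and Gm12248, Krt83 and Oxct2b passed the filter only through estrogen libraries. Both counts therefore restate that choice and are no finding about the set. Macrophage markers moved with the E2 values: their 5 genes summed to 379.0 to 502.0 CPM with E2 and 207.0 to 363.0 CPM with vehicle, with no overlap, and to 161.0 to 296.0 CPM with E4 and 218.0 to 247.0 CPM with tamoxifen. Their part in the values of the set was not tested.

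Among the 6 genes with a mean above 0.5 CPM, the variation between mice was compared pair by pair. Over the 24 libraries Greb1 and Stc1 had a Pearson correlation of log2 CPM of 0.81, but of -0.17 after the mean of each group was removed. Stc1 and Gm12248 went from 0.89 to 0.25, and Greb1 and Gm12248 from 0.83 to 0.14. The correlation left after removing group means was highest for Pgr with Nrip1 (0.44) and Stc1 with Nrip1 (0.41) among the 15 pairs. These are descriptions over libraries that share scaling and tissue makeup.

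Among 19528 genes with a mean of at least 1 CPM, those most like Greb1 over the 24 libraries were Susd1 (r = 0.956), Pappa2 (0.947), Il4ra (0.938), Gclc (0.927) and Gm44876 (0.902), which is antisense to Il4ra. After group means were removed their correlations were 0.63 to 0.83, in the same libraries by which they were picked. Il4ra, a cytokine receptor chain, was at 48.1, 202.0, 113.0 and 59.3 CPM on average with vehicle, E2, E4 and tamoxifen. Among those most like Stc1 were its antisense gene Gm41192 (0.968), Ism1 (0.954), Gas6 (0.952) and Aldh1a2 (0.945), with correlations of 0.49 to 0.71 after group means were removed. The counts of Gm41192 can hold reads of Stc1. Aldh1a2, an enzyme of retinoic acid synthesis, was at 2.82, 23.0, 6.87 and 4.53 CPM. The genes most like Pgr were Gm16485 (0.88) and Aff4 (0.878), and those most like Nrip1 were Rspo2 (0.84) and Pdcd4 (0.829). Akr1cl (0.945) and Bmp8b (0.933) were most like Gm12248, and the correlations after removing group means were 0.29 and -0.15.

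Other known estrogen targets moved in both directions. Of a list of 60 such genes from uterus, breast and vessels, 55 were tested. With E2, 2 were called higher and 1 lower, with E4 2 higher and 2 lower, and with tamoxifen 1 higher and 1 lower. Over all genes tested 1.27%, 2.51% and 0.308% were called in either direction. By adjusted p alone, 5 were higher and 2 lower with E2, 11 and 8 with E4, and 4 and 3 with tamoxifen, where 4.16%, 22.0% and 2.21% of all genes passed that threshold in either direction. The medians of the list were 0.07, 0.13 and 0.13 on the log2 scale. Complement C3 rose from 532.0 ± 144.0 to 1240 ± 125.0 CPM with E2 (log2 fold change 1.22, adjusted p = 8.55e-05 by edgeR), and Rerg, a small GTPase, by 1.05 (adjusted p = 0.00468). Ihh, a hedgehog ligand, fell by 1.05 with E2 (adjusted p = 0.0264). With E4, Fkbp5 and the transcription factor Gata3 rose by 1.22 each (adjusted p = 0.000373 and 0.0281), and Fos and the prolactin receptor Prlr fell by 1.08 each (adjusted p = 0.0307 and 0.0316). The summed sympathetic neuron markers stood at 4380 to 8940 CPM with E4 and 41.2 to 5430 CPM with vehicle, and their part in the Gata3 value was not tested. With tamoxifen, Prlr fell by 2.09 (adjusted p = 0.0071) and the water channel Aqp5 rose by 4.61 (adjusted p = 0.00279 by edgeR). Aqp5 is also a salivary gland marker, and the 5 markers of that gland and other epithelium, Aqp5 among them, summed to 74.5 to 96.8 CPM with tamoxifen and 83.4 to 135.0 CPM with vehicle.

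**Figure D5:**
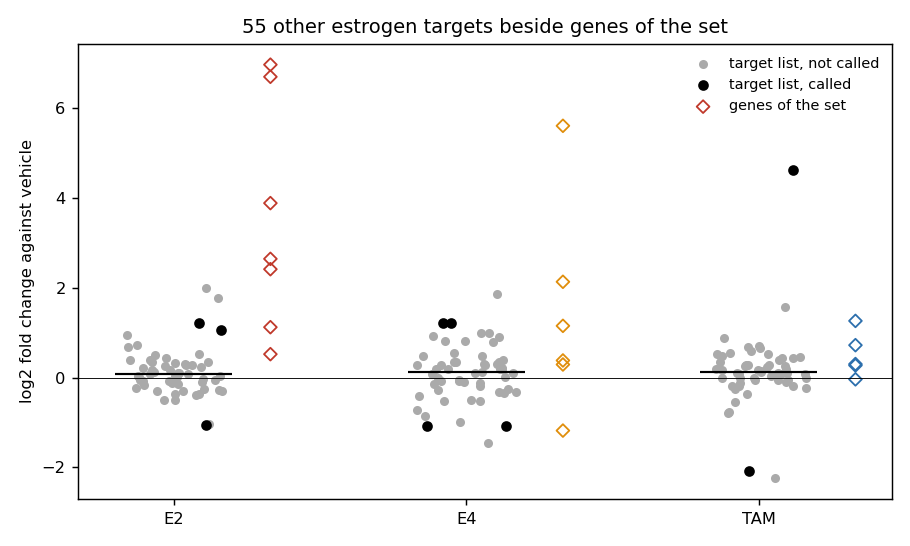
Log2 fold change against vehicle (y axis) of 55 other estrogen target genes (filled points, black where called, with their median as a line) and of genes of the set (open diamonds, without Krt83 and without ligands for which a gene did not pass the filter) for each ligand. The medians of the list lie between 0.07 and 0.13, and all diamonds but those of Myb with E4 and tamoxifen lie above 0.

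Esr1 itself had 34.3 to 62.8 CPM with vehicle, 29.5 to 41.8 CPM with E2, 22.1 to 30.7 CPM with E4 and 26.3 to 37.1 CPM with tamoxifen. It was lower with E4 by 0.86 and with tamoxifen by 0.55 on the log2 scale (adjusted p = 0.000282 and 0.0286 by edgeR), both under the 2-fold threshold, and at -0.37 with E2 (adjusted p = 0.107). Only the E4 range did not overlap vehicle. The relatives of the members, 41 genes of which 32 were tested, gave 1 call with E2 (Pappa2), 1 with E4 (Fkbp5) and 0 with tamoxifen by edgeR, beside the 1.27%, 2.51% and 0.308% of all genes. By adjusted p alone, 4 were higher and 0 lower with E2, 9 and 3 with E4, and 2 and 0 with tamoxifen.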

How the data were processed

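Carotid artery RNA (integrity numbers above 7.4 per the labels) was sequenced with a stranded mRNA kit as 150-base read pairs. The authors converted reads with bcl2fastq 2.17, trimmed them with Trim Galore, aligned them with Bowtie2 and counted genes with featureCounts (build mm10, GRCm38, per the submitters' processing notes). The deposited values are estimated counts per gene: 8.87% to 9.8% of values per library carried decimals and were rounded. Annotation, strand and multi-mapping settings are not given in the sources used here. Counts were tested with edgeR 4.0.16 (R 4.3.3): quasi-likelihood test, TMM, default low-count filter, 1 fit of 24 libraries in 4 groups without covariates, Benjamini-Hochberg adjustment over 25033 genes, thresholds of 0.05 and 2-fold. DESeq2 1.42.0 was an alternative. Standard errors came from the F statistic. Exact permutation tests (924 splits) of tamoxifen against vehicle in Krt83 and Oxct2b, and the fitted tamoxifen p-values of Gm12248, Krt83 and Oxct2b, were computed but are not used, since these genes passed the filter only through estrogen libraries. The floor of 3 counts and the exact 95% intervals of summed counts cover counting error only, since PCR copies cannot be told from molecules. Among counts of 1 to 20, the ratio of odd to even values was 0.761 to 0.875 per library. Counts may therefore not be independent, and the floor and exact intervals may be too narrow. The 95% interval of Greb1 came from the fit and includes the spread between mice. Replicate libraries differed by more than sampling noise (chi-square per degree of freedom at least 11.6). The code was tested on simulated counts. Animals carry their own numbers, so replicates are separate mice.

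The members, lists and tests were chosen with earlier results of these data known. Named genes were the 8 members, 9 fixed relatives, called genes of both lists (at most 5 per direction and ligand), the genes most like each member (5 for Greb1 and Stc1, 2 for others above 0.5 CPM) and genes whose exons overlap a member. The thymocyte list and the search of neighbouring genes were added after seeing the data. One gene that this rule names is not reported here. Krt85 was not analysed here. Alternatives are given below.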

Additional observations from a re-analysis of the deposited data

Results flagged for a closer look

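Single mice stood apart from the other 5 of their group (gap over range above Dixon's 95% limit for 6 values) in 16 of 110 groups examined, where chance gives about 1 in 20. Myb in E2 C9 was at 44.5 CPM (others at most 3.31 CPM), T cell markers in E2 C9 at 304.0 CPM (others at most 23.4 CPM) and Mybl2 in E2 C9 at 3.07 CPM (others at most 1.86 CPM). Thymocyte markers in E2 C9 were at 358.0 CPM (others at most 15.8 CPM) and epidermis and hair markers in E2 C9 at 20.3 CPM (others at most 5.14 CPM). Gm12248 in E4 C39 was at 2.02 CPM against 0.914 to 1.22 CPM. Sympathetic neuron markers in TAM C35 were at 212.0 CPM against 4900 to 7160 CPM and smooth muscle markers there at 7910 CPM against 2830 to 4040 CPM. Thyroid and parathyroid markers in E4 C38 were at 2970 CPM against 13.4 to 122.0 CPM, and macrophage markers in vehicle C5 at 363.0 CPM against 207.0 to 251.0 CPM. The other flags rested on few counts: Gm12248 in TAM C32 at 0.149 CPM, Krt83 in TAM C13 at 0.059 CPM, Oxct2b in vehicle C24 at 0.0185 CPM, Krt81 in vehicle C2 at 0.0188 CPM, Krt86 in E4 C16 at 0.0275 CPM and Oxct2a in TAM C12 at 0.0892 CPM.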

How the results depend on the processing

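No paired analysis was possible because every animal number occurs in 1 group only. For E2 and E4, 162 of 174 values of single members under alternatives other than leaving out a library moved by less than the spread between mice, and 2 turned sign, both in numbers from 24: Myb with E2 (-0.97) and Pgr with E4 (-0.02). For the 5 genes tested with tamoxifen, 35 of 50 kept direction and side of the threshold. Tamoxifen values that changed sign were Greb1 (0.27 to -0.34 in numbers from 24), Gm12248 (0.91 to -0.28 in numbers up to 20, on few counts) and Myb (-0.04), which went to 0.51 in numbers up to 20, 0.14 without vehicle C5 and TAM C35, 0.05 with the sympathetic neuron covariate, 0.73 with the B cell covariate and 0.05 to 0.17 without 1 of vehicle C3 or C24 or TAM C11, C33 or C35 (0.17, 0.08, 0.09, 0.05 and 0.13). The cause was not tested.

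Counts of genes called with tamoxifen were 77 with all libraries, 553 without the fold threshold, 130 by DESeq2, 17 with only vehicle and tamoxifen fitted, 49 without C5 and C35, 9 with the B cell covariate, and 1 and 0 in the number series, where fewer mice were compared. Leaving out a library gave 29 (vehicle C3) to 99 (TAM C35), and 39 without TAM C33. For E2 the count was 318, 1041 without the fold threshold, 198 and 86 in the number series, and 285 to 353 without a library. For E4 it was 629, 5514 without the fold threshold, 5 in numbers from 24, 77 with the B cell covariate, and 414 (without vehicle C3) to 794 without a library. Called targets were 5 with E2 by DESeq2, 1 and 0 in the number series, 0 with E4 in numbers from 24 and 0 with tamoxifen in both. Called relatives were 0 with E2 and with E4 in numbers from 24, and 0 with E2 without C5 and C35. Members separate from vehicle were, in numbers up to 20 and from 24, 3 and 3 with tamoxifen, 7 and 6 with E2 and 7 and 5 with E4. Within these series 3 mice per ligand were set against 4 and 2 vehicle-treated mice, and groups of fewer mice separate more easily by chance. Without a library, members separate from vehicle were 1 to 2 (2 without TAM C12) with tamoxifen, 6 to 7 with E2 and 5 to 6 with E4. The share over all genes was not computed for any of these counts, so they are no result about the set. Krt83 and Oxct2b rest on at most 52 counts per library.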
